A study of Mus musculus with 40 samples.

Results

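The comparison describes mouse 3T3-F442A cells differentiated into adipocytes and sets them against proliferating preadipocyte lines, using 8 of the 40 arrays of the study. The adipocyte group holds the 3 arrays labelled as differentiated 3T3-F442A at day 7. These cells were taken to confluence and then kept for 7 days with rosiglitazone in DMEM with 10% FCS, and the depositors judged differentiation from the lipid droplets seen in the cells. The preadipocyte group holds 5 arrays of 4 lines, namely 3T3-L1 (2 arrays), 3T3-F442A, Ob1774 and Hgfu (1 array each). The lines were kept sparse in the same medium, without rosiglitazone in their description. The 3T3-L1 arrays were averaged, so that each line counts once. No genotype, transgene or strain is given for any of the 8 samples. Confluence, the drug, the 7 days and the change of line all differ between the groups and cannot be told apart, and undifferentiated 3T3-F442A cells are represented by a single array. Nothing in the labels says that the arrays of a group come from separate cultures. The p-values therefore describe only how arrays vary within groups, with the spread pooled over the 14 groups of the study. This spread may be technical in part, and it is not that of the 8 arrays alone.

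3T3-F442A is a clonal line of mouse preadipocytes that stops dividing at confluence and then fills with lipid droplets. Rosiglitazone is a thiazolidinedione that activates PPARγ, the nuclear receptor at the top of the adipocyte programme, which binds DNA with RXR at repeats of the sequence AGGTCA. Adipocytes release fatty acids from circulating lipoproteins with lipoprotein lipase, store them as triglyceride in droplets coated by perilipins, and form a basement membrane in place of the looser matrix of the preadipocyte.

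Each array is a nylon filter with 5760 spots hybridised with 33P-labelled cDNA from 1 sample. Values are given as quantile-normalised spot intensities in ku (1 ku is 1000 of the arbitrary units of the files), and differences as log2 differences ± SE between the group means, taken after adding an offset of 36370 to each intensity. A log2 difference of a dim spot is therefore smaller than that of its intensity ratio. A spot was called at a Benjamini-Hochberg adjusted p under 0.05 over all 5760 spots in limma's test. Of the spots, 3420 carry 1 gene name. The raw median intensity ran from 22.7 to 71.6 ku over the preadipocyte arrays and from 44.5 to 78.9 ku over the day 7 arrays. The median spot had an SD of 0.13 over the 3 day 7 arrays and 0.17 over the 4 lines on the log2 scale.

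The arrays of a group were not equally alike. After centring each spot on all arrays, day 7 replicates 2 and 3 correlated at 0.64 across spots, while replicate 1 correlated at 0.10 with replicate 2 and -0.02 with replicate 3. The 3T3-L1 arrays correlated at 0.19 with each other, and 3T3-L1 sample 2 correlated at 0.22 with day 7 replicate 3. These are descriptions across spots, which are not independent. Spots next to each other in the table also had similar differences (r = 0.25 for spots 1 apart and -0.02 for spots 100 apart), so the neighbours of the called spots are described below. Which spots lie beside each other was read from these correlations, as 12 spots to a row, and is not stated in the labels, so that neighbours here may not be neighbours on the filter. Calls of named genes that change without day 7 replicate 1 or 3T3-L1 sample 2 are given with each gene.

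Of the 5760 spots, 9 were called (0.156%), all of them higher in day 7 adipocytes, and 6 of these carry a gene name: Lpl, Plin5, Col4a1, Aldoa, Cp and Mt1. None was called lower in limma's test, where 287 spots (4.98%) were lower and 286 (4.97%) higher at an unadjusted p under 0.05. The median log2 difference of all spots was -0.01, and 20 spots differed by more than 1. Without day 7 replicate 1, 22 spots were called, all higher, and without 3T3-L1 sample 2 there were 32, of which 22 were higher and 10 lower. The fit of the compared groups alone called 3 spots, among them Lpl and Aldoa, and median scaling called Lpl and Cp. Without scaling no spot was called in limma's test, with 378 at an unadjusted p under 0.05. The named genes that follow were chosen by a rule on calls, on the size of non-overlapping differences and on membership of gene lists.

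**Figure D1:**
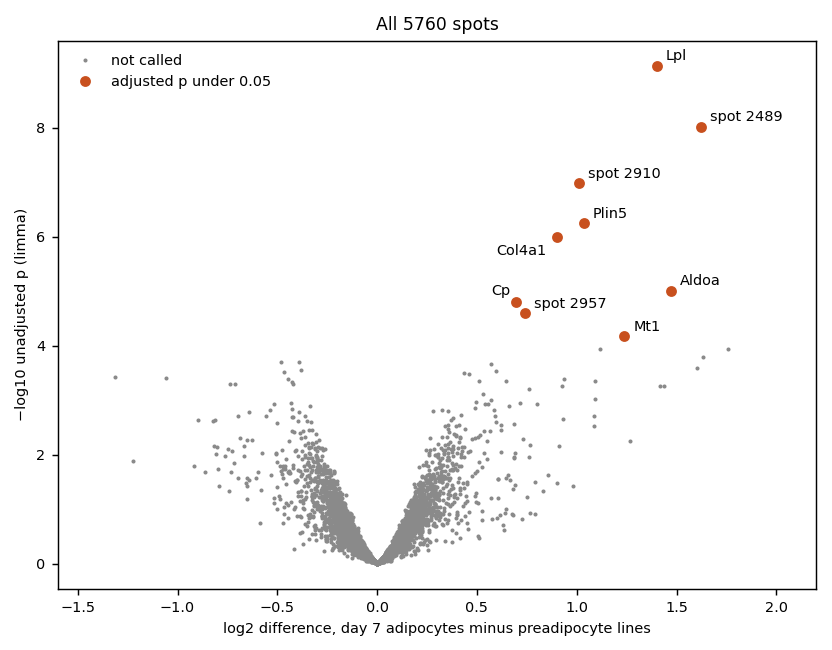
Log2 difference between day 7 adipocytes and preadipocyte lines (x axis) against -log10 of the unadjusted limma p (y axis), 1 point per spot, for 5760 spots. The 9 called spots, in orange, all lie on the side of higher intensity in adipocytes, with Lpl at the top.

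Among genes of triglyceride uptake and storage, Lpl and Plin5 rose, and Lpl had the smallest p of all spots. Lpl encodes lipoprotein lipase, which hydrolyses the triglyceride of circulating lipoproteins. Its intensity was 99.4 and 102 ku on the 3T3-L1 arrays, 80.2 in 3T3-F442A, 71.4 in Ob1774 and 124 in Hgfu, and 329, 230.0 and 369 ku on the day 7 arrays. Every day 7 array thus lay above every preadipocyte array, and the lowest day 7 array was still well above Hgfu, the highest line. The log2 difference of Lpl was 1.40 ± 0.16 (adjusted p = 4.13e-06), a ratio of mean intensities of 3.29, from 94.1 ± 23.4 ku (SD, n = 4 lines) to 309 ± 71.7 ku (SD, n = 3). It was called in all 8 fits that left out 1 of the 8 arrays. In these bulk samples, more cells expressing a gene and more RNA per cell cannot be told apart. The 8 spots around it in the table had a median log2 difference of -0.00 and reached at most 0.21.

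Plin5 encodes perilipin 5, a droplet coat protein best known from oxidative tissues such as heart and muscle, where it links droplets to mitochondria. Intensities of Plin5 were 128, 151, 123, 181 and 130.2 ku in 3T3-L1 (both arrays), 3T3-F442A, Ob1774 and Hgfu, against 214, 349.5 and 468 ku at day 7. The groups did not overlap, although day 7 replicate 1 lay close to Ob1774. The log2 difference was 1.03 ± 0.17 (adjusted p = 8.13e-04), and Plin5 was called in all 8 fits with 1 array left out. In the inferred layout, spot 2478 of Plin5 lies beside the unnamed called spot 2489, with a log2 difference of 1.62. The median over the 8 neighbours of Plin5 was 0.16, and the part of the neighbouring signal in the value of Plin5 was not tested. With a local trend over the table removed, a step added after seeing the data, Plin5 kept a difference of 0.90 (adjusted p = 6.96e-04). It was not called with only the compared groups in the fit (0.75, adjusted p = 0.133) or with median scaling (0.77, adjusted p = 0.332).

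RefSeq promoter windows, which span 300 bases around a transcript start on GRCm38.p6, most of them upstream, were found for 5 of the 6 named called genes. They were searched on both strands for AGGTCA, the half-site of the PPARγ element, and for the cores TGCACNC and TGCGCNC of the metal response element, because the drug acts through PPARγ and Mt1 is the textbook target of metals. The windows of Plin5 and Mt1 that hold these letters are shown 5′ to 3′ on the gene's strand, with the AGGTCA match of Plin5 and the metal response element cores of Mt1 in capitals; other matches are left in lower case. The Plin5 window is chr17:56117499-56117798, minus strand, and the Mt1 window is chr8:94178839-94179138, plus strand.
Plin5: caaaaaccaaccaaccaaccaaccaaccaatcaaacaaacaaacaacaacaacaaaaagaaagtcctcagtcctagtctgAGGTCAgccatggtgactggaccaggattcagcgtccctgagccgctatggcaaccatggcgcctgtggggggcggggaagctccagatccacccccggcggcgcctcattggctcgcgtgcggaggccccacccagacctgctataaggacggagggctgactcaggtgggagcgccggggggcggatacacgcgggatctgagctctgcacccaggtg
Mt1: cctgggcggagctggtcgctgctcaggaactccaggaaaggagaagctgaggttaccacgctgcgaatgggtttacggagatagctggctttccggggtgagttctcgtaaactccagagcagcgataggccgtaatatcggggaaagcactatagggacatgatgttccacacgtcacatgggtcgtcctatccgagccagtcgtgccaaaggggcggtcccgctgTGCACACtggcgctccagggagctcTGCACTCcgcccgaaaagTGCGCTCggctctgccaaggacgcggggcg
The printed Plin5 window holds 1 half-site, which 16.3% of all 32851 windows also do. The Mt1 window holds 3 metal response element cores, and 25.7% of all windows hold at least 1. Aldoa had 3 windows, Plin5 and Cp 2 each, and Mt1 and Col4a1 1 each. Summed over all windows of a gene, half-sites numbered 2 in Plin5 and 2 in Aldoa and 0 in Mt1, Cp and Col4a1. Metal response element cores numbered 3 in Plin5, 3 in Mt1, 2 in Aldoa, 2 in Col4a1 and 0 in Cp. Whether windows of a gene share bases was not checked, so a site may be counted more than once. The sums therefore do not compare genes over equal lengths. The full element, AGGTCA repeated in the same direction after 1 base, occurs in 13 windows (0.0396%) and in none of those of the called genes. A match describes the letters only and does not show that a factor binds.

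Among 58 listed genes of adipocytes and lipid storage, 14 were measured, and Lpl and Plin5 were the 2 called. The median of the list was 0.08, against -0.01 over all spots, and 11 of its 14 members were positive. Pnpla2, the lipase that starts the breakdown of droplet triglyceride, had 43.3, 48.1, 37.7, 68.4 and 46.7 ku on the preadipocyte arrays and 88.1, 73.8 and 75.1 ku at day 7. The groups did not overlap, with Ob1774 the highest line, and the log2 difference was 0.43 ± 0.11 with an adjusted p of 0.0892, so it was not called. It passed without 3T3-L1 sample 2 (adjusted p = 0.0479) or without Ob1774 (adjusted p = 0.0158). Abhd5, the coactivator of that lipase, differed by 0.17 ± 0.12, and its day 7 arrays overlapped the lines.

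Cavin1, which builds the coat of caveolae, rested on a single array: day 7 intensities were 63.1, 102 and 232 ku, against 58.2 to 91.7 ku over the preadipocyte arrays. Its log2 difference of 0.42 ± 0.20 had an adjusted p of 0.48. Cidec, a droplet protein that lets droplets merge, was at 121, 77.7 and 79.2 ku at day 7, and only replicate 1 lay above the highest preadipocyte value of 98.0 ku (0.25 ± 0.17, adjusted p = 0.681). Retn, which encodes the adipocyte hormone resistin, stood at 43.3, 41.9 and 43.2 ku at day 7 within a preadipocyte range of 31.5 to 50.4 ku. The remaining members of the list lay between -0.08 and 0.08: the lipoprotein receptor Vldlr, the triglyceride synthesis enzyme Dgat1, the elongase Elovl6, the caveolar protein Cav2, the phosphatidate phosphatase Lpin2, the seipin gene Bscl2 and the glycerol channel Aqp7. Retn, Vldlr, Elovl6, Lpin2, Bscl2 and Aqp7 were dim, with group means of 38.8 to 50.4 ku. These means are not far above the offset of 36370, so the small differences of these genes cannot show that they did not change. Of the 9 genes taken as adipocyte markers, 4 were measured (Lpl, Retn, Cidec and Pnpla2) and 1 was called. The other 5, Fabp4, Adipoq, Plin1, Cfd and Slc2a4, and all 7 preadipocyte and fibroblast markers are not analysed here, so the label of the cells was checked against few genes.

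**Figure D2:**
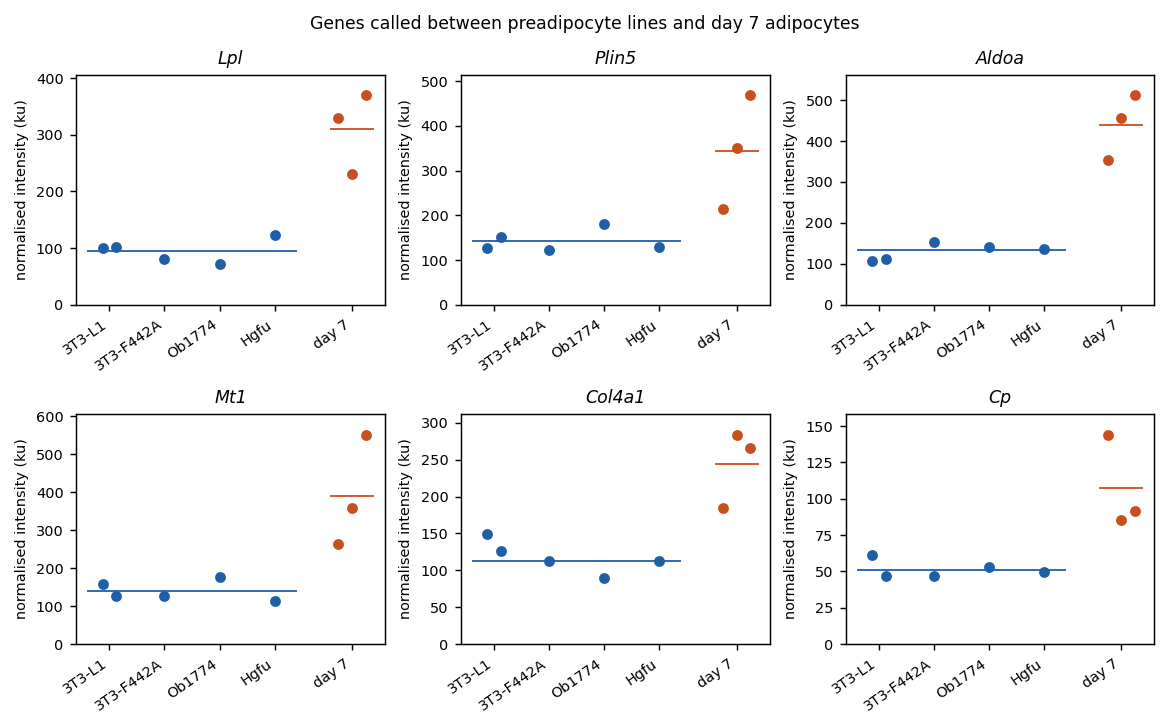
Normalised intensity in ku (y axis, from 0) of the 6 named called genes on each preadipocyte array (blue, by line) and each day 7 array (orange, replicates 1 to 3 from left to right). Horizontal lines are the means of 4 lines and of 3 day 7 arrays, and in every panel the day 7 arrays lie above all preadipocyte arrays.

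Outside lipid storage, a basement membrane collagen, a glycolytic enzyme and 2 metal-handling genes rose. Col4a1, a chain of the type IV collagen that forms the basement membrane around adipocytes, had 149, 127, 112, 89.2 and 113 ku on the preadipocyte arrays and 184, 284 and 266 ku at day 7. The groups did not overlap and the lowest day 7 value was that of replicate 1. The log2 difference was 0.90 ± 0.15 (adjusted p = 0.00117), a ratio of mean intensities of 2.16, and it was called in all 8 fits with 1 array left out. Of the 7 measured genes of the basement membrane list it was the 1 called, and the list median was -0.00. Agrn, which encodes the heparan sulfate proteoglycan agrin, went the other way, with 23.03, 26.2 and 39.8 ku at day 7 against 31.2 to 55.5 ku on the preadipocyte arrays (-0.36 ± 0.11, adjusted p = 0.179). This spot is dim, with day 7 replicates 1 and 2 below the offset of 36370, which is the 10th percentile of all intensities. The laminin chain gene Lama1, Col18a1 and the integrin genes Itga3 and Itgb1 lay between -0.13 and 0.17.

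Aldoa encodes the aldolase of glycolysis. It had 107, 112, 153, 140.4 and 135 ku on the preadipocyte arrays and 353, 456 and 511 ku on the day 7 arrays, the widest gap in intensity among the 6 named genes. The log2 difference was 1.47 ± 0.28 (adjusted p = 0.0093) and the ratio of mean intensities 3.27. The call was lost without day 7 replicate 2 (adjusted p = 0.0817) or replicate 3 (adjusted p = 0.0867), while the difference stayed at 1.44 and 1.36. Other glycolysis and glycogen genes moved less. Of 11 measured, Aldoa was the 1 called, 8 were positive and the median was 0.14. Pfkp, a phosphofructokinase, had 67.0, 104 and 85.4 ku at day 7 and 54.2 to 63.6 ku on the preadipocyte arrays (0.32 ± 0.11, adjusted p = 0.300). Gys1, the glycogen synthase of muscle and fat, and Pdhb, a subunit of pyruvate dehydrogenase, differed by 0.24 and 0.26 without a call.

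Mt1 encodes metallothionein 1, a small protein that binds zinc and copper. Its intensities were 157, 128, 128, 176 and 113 ku on the preadipocyte arrays and 264, 359 and 552 ku at day 7. The groups did not overlap, but the day 7 arrays were far apart, and the call was the weakest of the 9 (1.24 ± 0.27, adjusted p = 0.0424). It held in 4 of the 8 fits with 1 array left out, and failed without day 7 replicate 2 (adjusted p = 0.190) or 3 (0.277), without 3T3-F442A (0.125) and without Hgfu (0.0965), as well as without the stem cell arrays lacking LIF, which enter the fit only through the shared normalisation and spread (1.08, adjusted p = 0.107). Cp encodes ceruloplasmin, the copper-carrying ferroxidase of plasma. It had 61.0, 47.0, 46.8, 53.3 and 49.3 ku on the preadipocyte arrays and 144, 85.6 and 91.6 ku at day 7, so that its highest array was replicate 1, the one that was lowest for Plin5, Col4a1, Aldoa and Mt1. The log2 difference of Cp was 0.70 ± 0.14 (adjusted p = 0.0131), and without day 7 replicate 1 it was 0.52 (adjusted p = 0.111), and without 3T3-F442A the adjusted p was 0.0662. Of the 10 measured genes of metal binding and oxidative stress, Mt1 and Cp were the 2 called and the median was 0.06. Mgst1, a microsomal glutathione transferase, had 73.8, 105 and 94.4 ku at day 7 with no overlap (0.49 ± 0.16, adjusted p = 0.261), and the peroxiredoxin Prdx3 differed by 0.15.

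The other 3 called spots carry no gene name here. Spot 2489 had 128 to 240.2 ku on the preadipocyte arrays and 509.6, 606 and 728 ku at day 7, the largest difference among the called spots (1.62 ± 0.21, adjusted p = 2.72e-05). Spot 2910 had 109 to 162 ku against 242, 455 and 261 ku (1.01 ± 0.15, adjusted p = 1.98e-04), and in the inferred layout it lies beside Stap2 (spot 2921), which differed by 1.63. Spot 2957 had 97.5 to 159 ku against 189, 304 and 222 ku (0.74 ± 0.15, adjusted p = 0.0180). The first 2 were called in all 8 fits with 1 array left out and spot 2957 in 5. The median log2 difference of the neighbours was 0.24 for spot 2489, with 1.11 as the highest. It was 0.16 for spot 2910 and 0.04 for spot 2957. For the named called genes other than Lpl and Plin5 it was -0.04 (Col4a1), 0.08 (Aldoa), 0.02 (Mt1) and 0.06 (Cp).

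Baselines other than the mean of 4 lines gave partly different genes. Set against the single array of undifferentiated 3T3-F442A alone, the same line without the drug, 32 spots were called (0.556%), 9 higher (0.156%) and 23 lower (0.399%), and 5 of them were among the 9. Lpl differed by 1.55 ± 0.25 (adjusted p = 0.00166) and Plin5 by 1.20 ± 0.25 (adjusted p = 0.0168). Col4a1 (0.90, adjusted p = 0.0729), Cp (0.76, 0.101), Mt1 (1.33, 0.186) and Aldoa (1.32, 0.211) kept their direction and were not called. Etfa, an electron carrier of fatty acid oxidation, passed with this baseline (0.70 ± 0.17, adjusted p = 0.0374). The named genes called lower with it included the calpain inhibitor Cast (-1.51), the transcriptional coregulator Cited2 (-1.49), the immune receptor gene Cd300lf (-1.57), Rpl15 (-1.44) and Ybx3 (-1.08). All of these rest on 1 preadipocyte array. With the mesenchymal line C3H-10T1/2 as the baseline, 22 spots were called (0.382%), 17 higher (0.295%) and 5 lower (0.0868%), and all 9 were among them. Lpl then differed by 1.43, Plin5 by 1.12, Col4a1 by 1.33, Aldoa by 1.65, Cp by 0.69 and Mt1 by 1.87.

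Some genes with large differences missed the threshold. B2m, the light chain of class I major histocompatibility molecules, had 75.6 to 242 ku on the preadipocyte arrays and 349.5, 835 and 790.5 ku at day 7, with no overlap (1.76 ± 0.40, adjusted p = 0.0608). It passed without day 7 replicate 1 (2.14, adjusted p = 0.0136) and without 3T3-L1 sample 2 (1.69, adjusted p = 0.0347), and also without 3T3-L1 sample 1 (0.0494) or Ob1774 (0.0434). Stap2, a signalling adaptor, had 56.7 to 119 ku on the preadipocyte arrays other than 3T3-L1 sample 2, which stood at 165, above day 7 replicate 1 at 150 ku. The other day 7 arrays were at 574 and 528 ku (1.63 ± 0.38, adjusted p = 0.0780). Stap2 passed without day 7 replicate 1 (2.18, adjusted p = 0.00315) and without 3T3-L1 sample 2 (1.76, adjusted p = 0.0293). Rrn3, a factor of RNA polymerase I, differed by 1.26, the guanine nucleotide exchange factor Farp2 by 1.09, the coatomer gene Copz2 by 1.09 and the ribosomal protein gene Rpl27a by 1.09, none of them called. Copz2 passed without day 7 replicate 1 (1.46, adjusted p = 0.0254) and Farp2 without 3T3-L1 sample 2 (1.23, adjusted p = 0.0293).

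No fall was called, and in the largest of them a single line stood out. The α-tubulin gene Tuba4a had 567 ku in Hgfu and 54.3 to 156 ku on the other preadipocyte arrays, against 49.9, 38.7 and 48.4 ku at day 7 (-1.31 ± 0.33, adjusted p = 0.0915), and it was called without 3T3-L1 sample 2 (-1.37, adjusted p = 0.0347). Kmt5b, a histone methyltransferase, was high in all lines, at 379 to 653 ku, and at 261, 217 and 177 ku at day 7 (-1.06 ± 0.27, adjusted p = 0.0915). Eln, the elastin gene, had 97.7 to 138 ku on the preadipocyte arrays and 57.6, 52.1 and 61.1 ku at day 7 (-0.65 ± 0.22, adjusted p = 0.272). The groups did not overlap for any of the 3. Rpl15 (-0.82), Cd300lf (-0.81), the zinc finger gene Zfp764 (-0.81), Plekha2 (-0.67), Dcaf5 (-0.56), Ybx3 (-0.54) and the exonuclease gene Eri2 (-0.52) made up the rest of the 10 largest named falls. By the rule behind these names, 139 spots had no overlap and an unadjusted p under 0.01, 80 higher and 59 lower. Non-overlap alone was met by 245 higher spots (4.25%) and 240 lower ones (4.17%).

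The lists of fatty acid oxidation, the tricarboxylic acid cycle and oxidative phosphorylation held no called gene. Of 11 measured genes of fatty acid oxidation and peroxisomes, none was called in limma's test, 3 were higher at an unadjusted p under 0.05 (Etfa, Hadh and Pex5), none lower, and the median was 0.15. Etfa had 55.3, 54.6, 39.5, 53.1 and 67.7 ku on the preadipocyte arrays and 80.0, 95.4 and 85.9 ku at day 7 (0.46 ± 0.11, adjusted p = 0.0892), and it passed without Hgfu (adjusted p = 0.0417). Hadh, an enzyme of the β-oxidation cycle, had 44.4 to 54.1 against 61.5, 97.7 and 89.4 ku (0.46 ± 0.16, adjusted p = 0.306). Neither overlapped between the groups, whereas Pex5, the import receptor of peroxisomes, did (0.27 ± 0.12). All 5 measured genes on the tricarboxylic acid cycle list were positive, from 0.07 to 0.34. The highest was Idh1 (80.6, 106 and 98.8 ku at day 7, adjusted p = 0.300), whose cytosolic isocitrate dehydrogenase lies outside the mitochondrial cycle. Of the other members, Idh3g had the smallest unadjusted p in limma's test (0.198). The 17 measured genes of oxidative phosphorylation had a median of 0.04, and Ndufa13 of complex I (0.36 ± 0.11, adjusted p = 0.206) was the 1 member with an unadjusted p under 0.05, where all spots gave 4.97% higher.

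Sterol genes went both ways. Cyp51, the demethylase of cholesterol synthesis, had 76.1 to 105 ku on the preadipocyte arrays and 58.2, 60.2 and 57.6 ku at day 7, with no overlap (-0.43 ± 0.14, adjusted p = 0.231). Insig2, which holds the sterol sensor in the endoplasmic reticulum, had 177 to 277 against 179, 108 and 124 ku (-0.47 ± 0.19, adjusted p = 0.366). Mvd, an enzyme of the mevalonate pathway, differed by 0.33 ± 0.13 in the other direction. The list of 8 measured genes had a median of 0.09. Stard4 has a second spot, and its spots disagreed in sign (0.24 and -0.04).

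**Figure D3:**
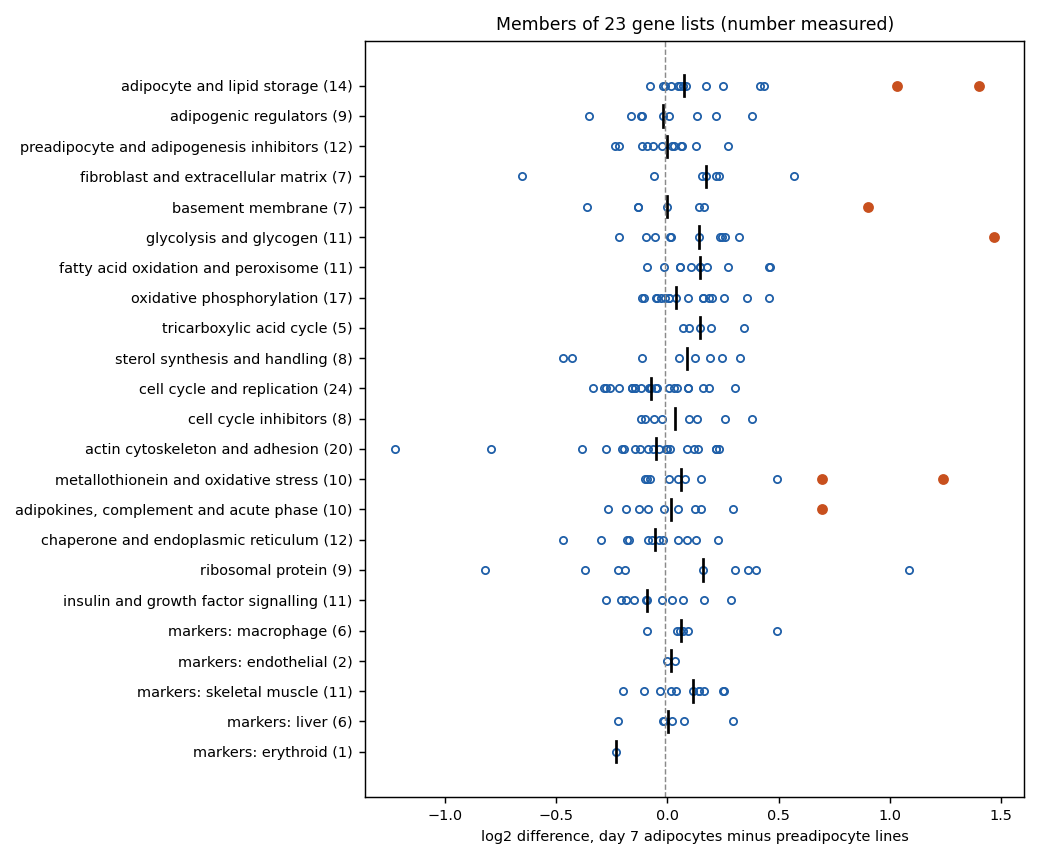
Log2 difference between day 7 adipocytes and preadipocyte lines (x axis) for each measured member of 23 gene lists (rows, with the number measured). Orange points are called, black ticks are list medians and the dashed line is the median of all spots, -0.01; most members of every list lie between -0.5 and 0.5.

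The list of cell cycle and replication genes held no call either. Of 24 measured cell cycle and replication genes none was called in limma's test, 16 were negative, and the median was -0.08. At an unadjusted p under 0.05, 2 were lower and 1 higher, where all spots gave 4.98% and 4.97%. The mitotic kinesins Kif20a (51.5 to 83.4 against 42.6, 45.7 and 45.7 ku, -0.33 ± 0.13) and Kif23 (40.2 to 59.2 against 33.6, 35.1 and 26.9 ku, -0.28 ± 0.10) did not overlap, and the spindle checkpoint kinase gene Bub1b differed by 0.30 ± 0.11 the other way. Their adjusted p-values were 0.371, 0.316 and 0.316. Pcna differed by -0.12 and Mki67 by 0.09. Kif18b, a mitotic kinesin gene outside the list that was picked after its value was seen, was higher at day 7. It differed by 0.76 in the main limma fit (adjusted p = 0.0999) and by 1.26 from the single 3T3-F442A preadipocyte array. Of 8 measured cell cycle inhibitors, 2 were higher at an unadjusted p under 0.05, among them the retinoblastoma gene Rb1 (120.4, 65.7 and 64.1 ku at day 7 against 37.02 to 73.6, 0.38 ± 0.15).

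The actin cytoskeleton and adhesion list held no call. None of its 20 measured members was called in limma's test, and the median was -0.05. At an unadjusted p under 0.05, 3 were lower and none higher, where all spots gave 4.98% and 4.97%. Tmsb10, which encodes an actin-binding thymosin, spanned 168 to 881 ku over the preadipocyte arrays, highest in 3T3-F442A, and had 83.4, 126 and 240.2 ku at day 7 (-1.22 ± 0.46, adjusted p = 0.338). Lgals1, the galectin 1 gene, had 257, 604 and 253 ku at day 7 against 293 to 806 ku (-0.79 ± 0.37, adjusted p = 0.454). Rhoc, a small GTPase of the cytoskeleton, had 72.3, 53.1 and 59.3 ku against 63.3 to 125.9 ku (-0.39 ± 0.12, adjusted p = 0.242). Eln was the 1 member of the fibroblast and matrix list that was lower at an unadjusted p under 0.05. Agrn of the basement membrane list, a dim spot, was lower at this threshold too. Timp2, an inhibitor of matrix proteases, had 50.4 to 284 ku on the preadipocyte arrays and 230.0, 444 and 209 ku at day 7, and the 7 measured fibroblast and matrix genes had a median of 0.17.

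The chaperonin subunit gene Cct2 had 67.1 to 139.9 ku on the preadipocyte arrays and 66.1, 74.6 and 73.8 ku at day 7. The lines, with 3T3-L1 averaged, did not overlap the day 7 arrays (-0.47 ± 0.12, adjusted p = 0.0892), and without 3T3-L1 sample 2 it was called (-0.52, adjusted p = 0.0213). Cct6a, another subunit of that folding complex, differed by -0.30 ± 0.14, and the 12 measured chaperone and endoplasmic reticulum genes had a median of -0.06. The 9 measured ribosomal protein genes ranged from -0.82 (Rpl15) to 1.09 (Rpl27a).

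Regulators of adipogenesis were not called. None of 9 measured adipogenic regulators and none of 12 measured inhibitors was called in limma's test; each list had 1 member higher and 1 lower at an unadjusted p under 0.05, where all spots gave 4.97% and 4.98%, and the medians were -0.02 and -0.00. E2f4, a repressor of the E2F family, had 58.0 to 107 ku on the preadipocyte arrays and 52.7, 60.3 and 67.2 ku at day 7 (-0.35 ± 0.15, adjusted p = 0.404). Myc, which holds preadipocytes in proliferation, had 48.2 to 58.6 against 44.3, 37.6 and 44.0 ku, with no overlap (-0.22 ± 0.09, adjusted p = 0.383). The signal transducers of the TGF-β family went opposite ways, with Smad2 at -0.24 ± 0.13 and Smad4 at 0.27 ± 0.12. The glucocorticoid receptor gene Nr3c1 differed by 0.22, and the preadipocyte factors Zfp423, Wnt5a and Klf2 by -0.12, -0.07 and -0.02. Of 11 measured genes of insulin and growth factor signalling, none was called or passed an unadjusted p of 0.05. Among 10 measured adipokine, complement and acute phase genes Cp was the 1 called. Igfbp7, an insulin-like growth factor binding protein, had 57.7, 59.4 and 68.0 ku against 61.0 to 107 ku (-0.27 ± 0.11, adjusted p = 0.376).

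The lists also held markers of cell types other than fat cells. None of the measured markers of macrophages (6), endothelium (2), skeletal muscle (11), liver (6) or red cells (1) was called or passed an unadjusted p of 0.05. The mean log2 intensity of the macrophage markers was 16.51 to 16.65 on the day 7 arrays, 16.40 to 16.52 in the lines and 17.61 to 18.03 in peritoneal macrophages. For the muscle markers these were 16.47 to 16.55, 16.40 to 16.48, and 17.64 to 17.74 in tibialis muscle.

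The levels of the 6 genes were then set beside those of the 13 other groups of the study, as a description. Day 7 adipocytes had the highest mean intensity of 14 groups for Lpl, Plin5, Mt1 and Col4a1. The genes were called for being high on these same day 7 arrays, so a high rank is partly built in. For Lpl, freshly isolated inguinal adipocytes came next with 179 ± 48.9 ku (SD, n = 3), then peritoneal macrophages with 163 ± 20.9, and these 2 did not differ beyond their spread. Mt1 was 391 ± 147 ku at day 7, followed by stroma-vascular cells with 232 ± 54.8 and proliferating C2C12 with 195 ± 96.0 ku. Col4a1 was 244 ± 53.2 at day 7, 153 ± 9.59 in stroma-vascular cells and 125 ± 18.7 in inguinal adipocytes. Plin5 was 344 ± 127 at day 7 and at most 191 ± 23.1 ku elsewhere, in embryonic stem cells without LIF, followed by peritoneal macrophages at 183 ± 3.64, with inguinal adipocytes at 149 ± 19.0. Tibialis muscle, an example of the tissues the gene is best known from, had 138 ± 5.49 ku, and liver 116 ± 5.76. Neither was above the preadipocyte lines at 143 ± 25.9 ku. Whether spot 2478 measures Plin5 alone was not tested. The stem cell arrays without LIF, unlike the others, hold intensities with decimals made by a step that is not stated, so their level is uncertain. Aldoa was higher in the macrophage line Raw 264 (495 ± 178 ku) than at day 7 (440.1 ± 80.2), by less than the SD of either, and inguinal adipocytes had 94.2 ku. Cp was highest in liver, at 161 ± 40.03 ku, ahead of day 7 adipocytes at 107 ± 32.1, peritoneal macrophages at 83.4 ± 23.3 and inguinal adipocytes at 70.4 ± 21.1.

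**Figure D4:**
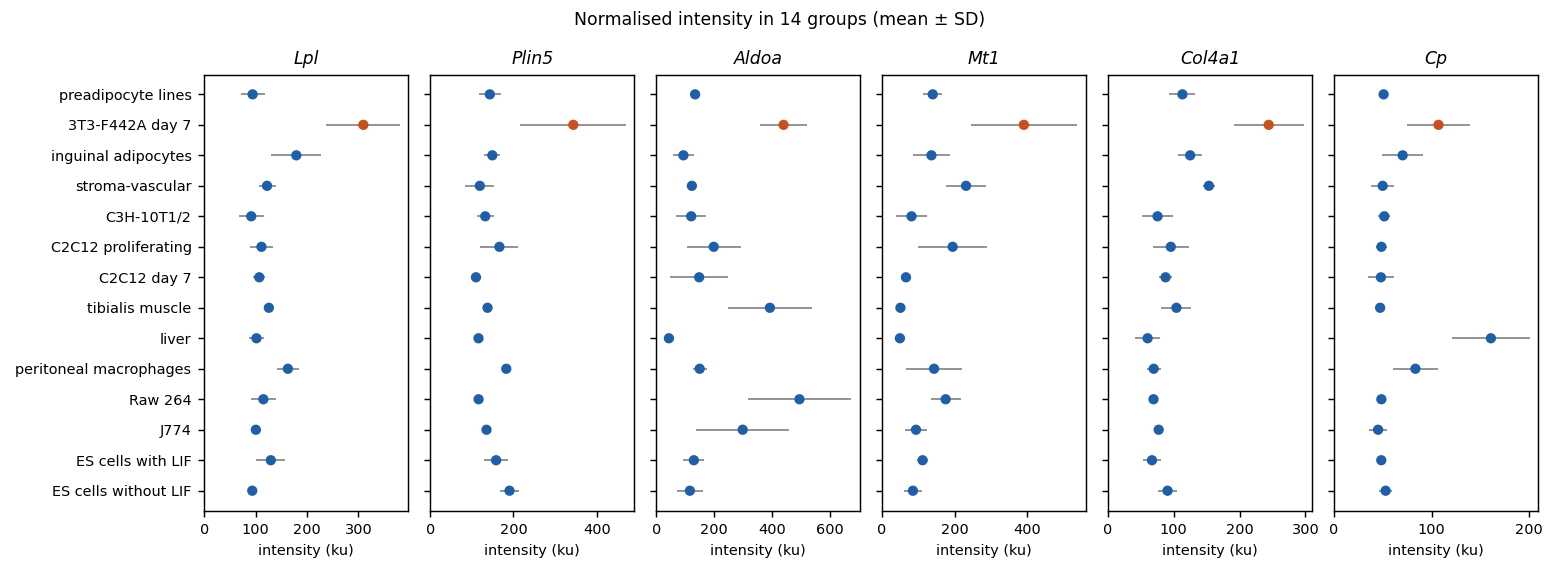
Normalised intensity in ku (x axis, from 0) of the 6 named called genes in 14 groups (rows); points are means over the arrays of a group, or over 4 lines for the preadipocytes, and bars are 1 SD. Day 7 adipocytes, in orange, have the highest mean for Lpl, Plin5, Mt1 and Col4a1, and are second to Raw 264 for Aldoa and to liver for Cp. The genes were chosen for being higher at day 7 than in the lines.

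A second line in the study, the myoblast line C2C12, was sampled proliferating (3 arrays) and after confluence and 7 days in DMEM with 4% HS, when it forms myotubes (2 arrays). The difference between the adipocyte step and the C2C12 step asks which changes differ from those of another line over the same number of days. It was called for 15 spots (0.26%), 11 higher (0.191%) and 4 lower (0.0694%), of which 7 carry a gene name. The adipocyte step uses the same 8 arrays as the first comparison, so for genes called there this test is not independent of that call. Lpl differed by 1.44 ± 0.25 between the steps (adjusted p = 0.00228), with 1.40 in adipocytes and -0.03 in C2C12. Plin5 differed by 1.48 ± 0.26 (adjusted p = 0.00228), with 1.03 against -0.45. For Mt1 the difference was 2.32 ± 0.42 (adjusted p = 0.00284), made of 1.24 in adipocytes and -1.08 in C2C12, where the fall was not called by itself (adjusted p = 0.205). Copz2 differed by 2.42 ± 0.47 (adjusted p = 0.00594), with 1.09 and -1.33, neither called. Copz2 lost this call without C2C12 day 7 replicate 1 (1.90, adjusted p = 0.301), and with C3H-10T1/2 as baseline its difference fell to 1.45 (adjusted p = 0.306). On the other side were the muscle contractile genes Myl1 (-1.95 ± 0.27, adjusted p = 1.01e-04) and Tnnc1 (-1.80 ± 0.19, adjusted p = 3.43e-07), which rose by 2.10 and 1.92 in C2C12 and differed by 0.14 and 0.11 in adipocytes. C1qtnf3, a secreted relative of adiponectin, differed by -0.95 ± 0.18 (adjusted p = 0.00551); it rose by 0.76 in C2C12 and differed by -0.19 in adipocytes. The steps differed by 0.98 for Col4a1 (adjusted p = 0.0643), 1.86 for Aldoa (0.0595) and 0.71 for Cp (0.194), which were not called. C2C12 was not given rosiglitazone in its description, so drug and lineage cannot be told apart here either. With only the compared groups in the fit, the differences of Lpl (1.17, adjusted p = 0.0597), Plin5 (1.16, 0.0789), Copz2 (1.70, 0.0597), Myl1 (-1.56, 0.0796) and C1qtnf3 (-0.97, 0.177) were not called. With median scaling Tnnc1 was the 1 spot called, and Lpl (1.38, adjusted p = 0.438), Plin5 (1.18, 0.998), Mt1 (1.92, 0.224), Copz2 (1.53, 0.881), Myl1 (-1.61, 0.0689) and C1qtnf3 (-0.92, 0.224) were not. Without C2C12 day 7 replicate 2 the count was 129, and without replicate 1 it was 10.

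**Figure D5:**
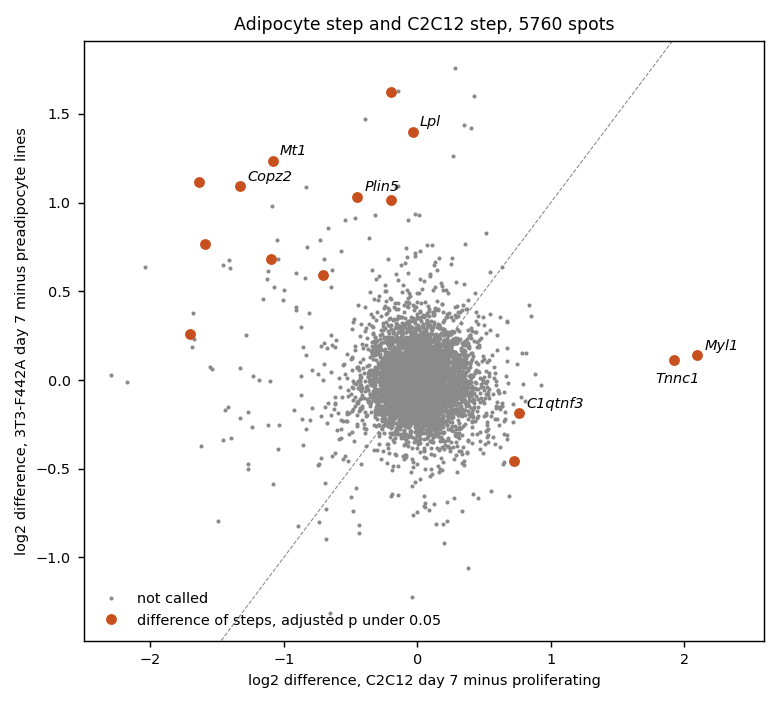
Log2 difference of C2C12 at day 7 against proliferation (x axis) and of 3T3-F442A at day 7 against the preadipocyte lines (y axis), 1 point per spot; the dashed line marks equal steps. The 15 spots whose steps differed at an adjusted p under 0.05 are orange, with Lpl, Plin5, Mt1 and Copz2 above the line and Myl1, Tnnc1 and C1qtnf3 below it.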

How the data were processed

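The deposited values are linear spot intensities of 5760 spots, 1 radioactively labelled sample per Resgen nylon filter. Tripure extraction, DNase treatment, labelling with 33P and quantification in Imagene are stated per the labels. The sources used here do not state background subtraction, scaling or the software version. On the 8 arrays the lowest intensity was 11.7 to 23.1 ku, so ratios here may be compressed by background.

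Groups follow the titles and, for the preadipocyte lines, the source names. C2C12 carries a source name that calls it a preadipocyte line and was grouped by its title. All 40 arrays were quantile normalised, log2 was taken after adding 36370 (the 10th percentile), the 3T3-L1 arrays were averaged, and 14 groups entered 1 two-sided limma 3.58.1 fit (lmFit, contrasts.fit, eBayes; R 4.3.3) with 25 residual degrees of freedom, tested on simulated data. Benjamini-Hochberg adjustment ran over all spots. SEs thus use the spread of all groups, with a median of 0.13 for this comparison. The number of arrays limits the precision.

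Of the spots, 98 carry several gene symbols and 2242 none; 3346 symbols were updated through the GRCm38.p6 annotation, giving 3284 genes. A gene in a list is represented by its brightest spot. Named genes are all called ones, the 10 largest rises and falls without overlap at an unadjusted p under 0.01 (clone names left out), per list the 4 members of smallest p, all of the lipid storage list, and up to 6 called genes in each direction for the difference of steps. Others are named to complete a list and were chosen after their values were seen. The members and lists were chosen with earlier results of these data known. Lists were described without a test. Alternatives covered scaling, offset, background, local trends over the table, the variance model, the baseline and leaving out arrays. Overlap between groups was judged with 3T3-L1 averaged. Plots used matplotlib 3.10.9 (Python 3.11.15).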

Additional observations from a re-analysis of the deposited data

Results flagged for a closer look

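Among 111 named results, 7 had 1 of the 4 preadipocyte lines far from the other lines, judged by the gap to the nearest line as a share of the whole range; chance gives this in about 1 of 20 groups. For Copz2 the 3T3-F442A line was the lowest, at 130 ku (gap share 0.886). For Cidec, 3T3-L1 was the highest, at 89.0 ku (0.858). For the glycerol channel gene Aqp7, Hgfu was the highest, at 63.5 ku (0.901). For Idh1, Ob1774 was the highest, at 85.1 ku (0.863). For Kif20a, 3T3-F442A was the highest, at 83.4 ku (0.83). For Rpl36, Hgfu was the lowest, at 49.8 ku (0.881). For Myl1, Ob1774 was the lowest, at 32.5 ku (0.838). None of these genes was called in the adipocyte comparison.

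Named genes, 7 in number, differed between the adipocyte step and the C2C12 step by the test of that difference. The difference on the log2 scale was 2.32 for Mt1, 2.42 for Copz2, 1.44 for Lpl, 1.48 for Plin5, -1.95 for Myl1, -1.80 for Tnnc1 and -0.95 for C1qtnf3.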

How the results depend on the processing

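Against 9 called spots, the count was 19 (13 higher, 6 lower) with a 2-dimensional local trend removed, 32 with 3T3-F442A alone as baseline, 22 with C3H-10T1/2 as baseline, 3 with only the compared groups in the fit (Lpl, Aldoa and spot 2489), 2 with median scaling (Lpl and Cp), and 0 without scaling. Without scaling the median of all spots shifted to 0.40 and limma gave 378 spots at an unadjusted p under 0.05. Leaving out 1 array gave 6 to 32 calls, and leaving out day 7 replicate 1 and 3T3-L1 sample 2 together, chosen after seeing the data like the 2-dimensional trend, gave 45. Of 23 alternatives, Lpl was called in 22, Plin5 in 20, Col4a1 in 19, Aldoa in 18, Cp in 17 and Mt1 in 10. The lost calls kept the direction.

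For the difference of steps, 15 calls became 26 with the 2-dimensional trend removed, 27 with a local trend along the table removed, 7 with only the compared groups, 1 with median scaling and 0 without scaling (115 at an unadjusted p under 0.05). Leaving out 1 array gave 10 to 129 calls; the C2C12 libraries that moved it most were day 7 replicate 2 (129) and proliferating replicates 1 and 3 (24 each), and without day 7 replicate 1 of 3T3-F442A it was 26. With a C2C12 replicate block there were 30 calls (22 higher, 8 lower). Same-numbered C2C12 arrays correlated at 0.11 and 0.06 in their deviations. With 2 day 7 arrays these deviations mirror each other (0.11 and -0.11 against proliferating replicate 1). The values therefore cannot decide whether the arrays are paired, and the main fit treated them as unpaired. The preadipocyte lines carry no replicate numbers that could pair them with the day 7 arrays.

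Of the named genes' alternatives, 2624 stayed on the same side of the threshold in the same direction, 31 gained a call, 66 lost one and 5 turned sign, where a turn means a sign change larger than the SE. These were Cd34 (0.249 with C3H-10T1/2 as baseline and 0.397 without scaling), Ndufa2 (0.114 with the 2-dimensional trend removed), Cct6a (0.271 with C3H-10T1/2 as baseline) and Hspe1 (0.608 without scaling). Background that was not subtracted limits what dim spots can show.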

Other observations

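Removing a 2-dimensional local trend over the table, a step chosen after seeing the data, called genes that the comparison above did not. With it, B2m differed by 1.77 ± 0.35 (adjusted p = 0.0111), Idh1 by 0.49 ± 0.09 (adjusted p = 0.00903), the osmotic stress transcription factor gene Nfat5 by 0.40 ± 0.08 (adjusted p = 0.00903) and the nuclear factor gene Nfia by 0.50 ± 0.10 (adjusted p = 0.0159). The genes lower with it were Padi4, a peptidylarginine deiminase (-0.57 ± 0.12, adjusted p = 0.0180), Cct2 (-0.52 ± 0.12, adjusted p = 0.0419), the netrin receptor gene Neo1 (-0.45 ± 0.10, adjusted p = 0.0298) and the stress-inducible Sesn2 (-0.34 ± 0.07, adjusted p = 0.0182). Padi4 was also lower with 3T3-F442A alone as baseline (-0.72 ± 0.17, adjusted p = 0.0335) and without 3T3-L1 sample 2 (-0.54 ± 0.12, adjusted p = 0.0296).

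With C3H-10T1/2 as the baseline, the genes called higher included Zfp36l1, an RNA-binding protein that destabilises messages (0.75 ± 0.15, adjusted p = 0.0141), the glucocorticoid-induced Tsc22d3 (0.76 ± 0.18, adjusted p = 0.0482), the survival factor gene Mcl1 (0.78 ± 0.16, adjusted p = 0.0154) and Idh1 (0.57 ± 0.13, adjusted p = 0.0316). Rpl15 (-1.52 ± 0.27, adjusted p = 0.00195) and the Golgi SNARE gene Gosr2 (-0.44 ± 0.10, adjusted p = 0.0482) were lower. These baselines share the 3 day 7 arrays with the main comparison, so the values are not independent of it. These genes were chosen after their values were seen.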
